A study of Mus musculus with 48 samples.

Results

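Choroid plexus genes were followed in 2 dissected regions of the mouse brain, the amygdala and the hippocampus, on 48 Affymetrix arrays with 1 colour. The 6 genes of interest were Ttr, Kl, Enpp2, Igf2, Igfbp2 and Folr1, and their members were all probe sets that the platform annotation assigns to one of these symbols alone. Of the 6 symbols, 5 had a probe set, with 7 probe sets in all, among 8251 gene symbols on the array. Enpp2, which makes the lipid mediator lysophosphatidic acid, is named by no probe set in the annotation used here and is not analysed. Ttr (95350_at), Kl (100956_at) and Igfbp2 (98627_at) had 1 probe set each. Igf2 had 98623_g_at and 98622_at, and Folr1 had 93785_at and 162302_f_at. The brighter probe set of each pair, listed first here, stands for its gene unless the other is named.

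The arms were labelled FC, CS and NH, which the labels do not spell out. Under the study's title, on associative and nonassociative learning, the codes can be read as fear conditioning, the conditioned stimulus alone and naive home cage. That reading is stated in no label, and no value below depends on it. Amygdala gave 6 FC, 6 CS and 10 NH arrays, and hippocampus gave 8 FC, 8 CS and 10 NH arrays, all from total RNA of dissected tissue. The sources used here do not give strain, sex, age or the time of dissection. Nothing in the labels states that arrays of 1 arm stem from different animals. The title number of each of the 22 amygdala arrays opens with the digit of its batch, and what follows can be split into 2 numbers. In 8 arrays both of these numbers, and in 1 array 1 of them, are also the number of a hippocampus array of the same arm, and in 0 arrays that of another arm. Each amygdala array may thus be a pool of 2 animals, some of them also dissected for hippocampus, although the labels do not say this. The p-values therefore cover the variation among arrays alone, some of which may be technical. Arrays are called by arm and by the number in their title. Values are log2 of the deposited intensity, on which a difference of 1 is a doubling.

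The choroid plexus is a vascular tissue covered by a secretory epithelium that lies in the brain ventricles and makes cerebrospinal fluid. In the lateral ventricle it is attached along the edge of the hippocampus, whereas the amygdala lies beside the lower end of that ventricle. Ttr encodes transthyretin, a carrier of thyroxine and of retinol-binding protein and a main secretory product of this epithelium. Kl encodes klotho, a transmembrane protein that acts as a coreceptor for the hormone FGF23. Folr1 encodes folate receptor alpha, through which folate enters cerebrospinal fluid. Igf2 encodes insulin-like growth factor 2, and Igfbp2 encodes a secreted protein that binds insulin-like growth factors. Both of these are made in the choroid plexus and also in the leptomeninges, the thin membranes over the brain surface.

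RefSeq promoters (assembly GRCm38.p6, from 250 bases before to 50 bases after the start of the transcript) were found for 3 of the 6 genes. Those shown are the window of Kl and the 1 window of Igf2 that holds the core site of OTX2, a homeodomain factor of choroid plexus epithelium. That site, TAATCC or its reverse complement GGATTA, was searched on both strands, and capitals mark the match.
Kl, chr5:150952357-150952656, plus strand: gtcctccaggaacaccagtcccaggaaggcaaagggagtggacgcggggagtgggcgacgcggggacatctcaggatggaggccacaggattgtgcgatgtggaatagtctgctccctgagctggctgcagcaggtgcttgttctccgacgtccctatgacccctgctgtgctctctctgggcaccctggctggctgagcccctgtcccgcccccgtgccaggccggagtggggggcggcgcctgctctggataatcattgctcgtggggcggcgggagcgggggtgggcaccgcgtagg
Igf2, chr7:142658755-142659054, minus strand: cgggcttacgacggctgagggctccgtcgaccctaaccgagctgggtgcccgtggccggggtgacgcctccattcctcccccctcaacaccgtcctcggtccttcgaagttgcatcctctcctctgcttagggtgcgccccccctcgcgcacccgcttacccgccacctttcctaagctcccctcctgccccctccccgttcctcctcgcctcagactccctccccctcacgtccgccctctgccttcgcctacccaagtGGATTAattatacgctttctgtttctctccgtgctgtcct
The Igf2 match begins 10 bases after the start, and the other 3 Igf2 windows, both Igfbp2 windows and the Kl window held none. The motif is short and occurs in 2320 of 32851 promoters of this length, or 7.1%, so its presence is a description of letters and not of a binding site. The windows shown have GC contents of 67.3% for Kl and 64.7% for Igf2.

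Ttr and Kl lay far lower among the genes of the array in amygdala than in hippocampus. Each tissue seems to have been normalized by itself, with array medians of 52.3 to 56.1 in amygdala and 76.5 to 80.8 in hippocampus, so levels are set side by side only as percentiles within an array and without a test. Ttr lay at a mean percentile of 18.8 ± 1.4 in amygdala (SD, n = 22 arrays) and of 53.4 ± 17.9 in hippocampus (SD, n = 26 arrays). Kl lay at 21.9 ± 1.8 in amygdala and at 48.2 ± 7.3 in hippocampus. For both genes every amygdala array was below every hippocampus array. The share of all probe sets that separate in this way is not given here. No batch held both tissues, so a difference between tissues cannot be told apart from a difference between batches. In such bulk tissue fewer cells of a type and less RNA per cell cannot be told apart. Igf2 was near the top in each tissue, at 96.0 ± 0.9 in amygdala and 94.9 ± 0.9 in hippocampus. Igfbp2 lay at 62.2 ± 4.7 in amygdala and 52.8 ± 5.1 in hippocampus, and Folr1 at 54.9 ± 2.0 in amygdala and 57.2 ± 3.7 in hippocampus. The tissues overlapped for these 3 genes. The second probe set of Igf2 disagreed with the first about its level, at percentiles of 26.5 in amygdala and 28.8 in hippocampus. The percentile depends on the probes as well as on the transcript, so it does not order genes by abundance.

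Markers of the tissues separated them in part in the direction of the labels. Of 6 hippocampus markers, Neurod6, Prox1, Dsp and Tdo2 lay lower in every amygdala array than in any hippocampus array, and Wfs1 and Calb1 lay higher. Of 4 amygdala markers, Tac2 and Cdh13 lay higher in every amygdala array, Rspo2 lay lower and Slc30a3 overlapped. The filter on dim probe sets, which left out the 40% with the lowest mean in each tissue, kept 7453 probe sets. Of the 7 member probe sets it kept 4 in amygdala, without Ttr, Kl and 98622_at, and 6 in hippocampus, without 98622_at. Of 31 other choroid plexus genes with a probe set, 20 were kept in amygdala and 20 in hippocampus.

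Ttr was high in a few hippocampus arrays, with at least 1 in every arm. In FC arrays Ttr ranged from 5.84 to 8.62 with a median of 5.98, in CS arrays from 5.71 to 9.23 with a median of 6.09, and in NH arrays from 5.47 to 8.72 with a median of 6.21. The widest gap in the 26 sorted values was 1.06, between 6.75 and 7.81, and 5 arrays lay above it. They were 2 of 8 FC arrays, 2 of 8 CS arrays and 1 of 10 NH arrays. The high arrays thus came from all 3 arms, and the arms overlapped over nearly the whole range.

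Among the 5 arrays, FC 35 had a Ttr value of 8.62 and FC 79 of 7.81. CS 109 had 9.23 and CS 105 had 7.89, and NH 82 had 8.72. In linear intensity these were 392, 225, 599, 238 and 420, against 44.5 to 108 in the 21 other arrays. Each array stood above the median of the arrays without high Ttr in its own processing batch, a number that the labels give. The excess was 2.59 for FC 35, 2.05 for FC 79, 3.22 for CS 109, 1.89 for CS 105 and 2.95 for NH 82. Batches 4, 5 and 6 held these arrays, and the 6 NH arrays of batch 7 ranged from 5.88 to 6.75. In amygdala no array stood apart. There Ttr ranged from 3.63 to 4.01 in FC, from 3.73 to 4.05 in CS and from 3.75 to 4.10 in NH, and the widest gap in the 22 values was 0.10.

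**Figure D1:**
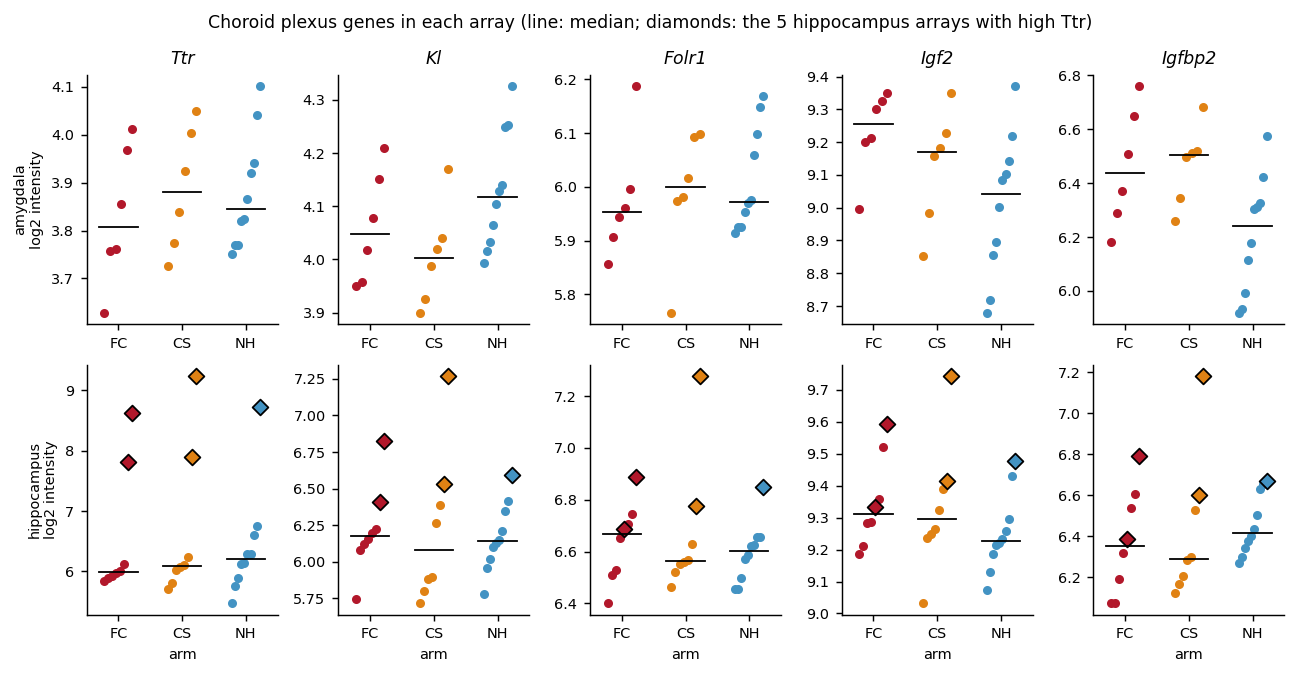
Log2 intensity (vertical axis, a scale of its own in each panel) of 5 choroid plexus genes in each of 22 amygdala arrays (top) and 26 hippocampus arrays (bottom) by arm (horizontal axis), 1 point per array, with a line at the median. Diamonds mark the 5 hippocampus arrays with Ttr from 7.81 to 9.23, of which CS 109 is the highest for every gene. With the batches pooled, FC 79 lies among the other arrays for Kl, Folr1, Igfbp2 and Igf2. No amygdala array stands apart for Ttr.

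After arm and batch were fitted, Ttr had the widest spread of the 7453 kept probe sets in hippocampus. Its residual SD was 1.12, against a median of 0.11 over all of them. Kl had a residual SD of 0.39, which 20 probe sets exceeded, and Igfbp2 one of 0.21, which 411 exceeded. Folr1 had 0.18 and Igf2 had 0.14, exceeded by 827 and by 2083 probe sets. In amygdala no member had a spread like that of Ttr or Kl in hippocampus. Igf2 lay at percentile 91.5 and Igfbp2 at 82.0 among the kept probe sets there. Igf2 had a residual SD of 0.17, exceeded by 633 probe sets, Igfbp2 one of 0.14 and Folr1 one of 0.11, and the dim Ttr and Kl had 0.12 and 0.09, against a median of 0.11.

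**Figure D2:**
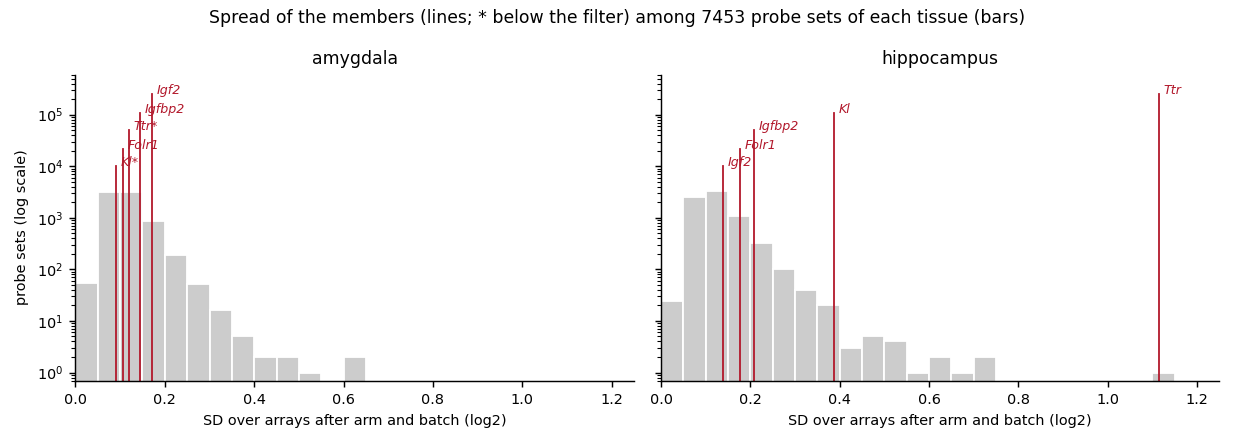
Residual SD over arrays after arm and batch (horizontal axis, log2 units) against the number of probe sets (vertical axis, log scale) in amygdala and hippocampus, with bars for the 7453 kept probe sets of each tissue. Red lines mark the 5 members and their height has no meaning. Ttr in hippocampus, at 1.12, is the rightmost value.

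The other members were high in some of the same 5 hippocampus arrays, Kl and Folr1 in more of them than Igfbp2 and Igf2. Kl was 6.82 in FC 35, 6.40 in FC 79, 7.27 in CS 109, 6.53 in CS 105 and 6.59 in NH 82, which gave it ranks 2, 6, 1, 4 and 3 among 26 arrays. The 21 other arrays ranged from 5.71 to 6.41 for Kl. Folr1 was 6.89 in FC 35, 6.69 in FC 79, 7.28 in CS 109, 6.78 in CS 105 and 6.85 in NH 82, against 6.40 to 6.75 in the others. For both genes 4 of the 5 arrays lay above all 21 others, and FC 79 lay among them. Within its own batch 6, FC 79 exceeded the 3 arrays without high Ttr, which reached 6.15 for Kl and 6.57 for Folr1.

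Igfbp2 was 6.79 in FC 35, 6.39 in FC 79, 7.18 in CS 109, 6.60 in CS 105 and 6.67 in NH 82, against 6.07 to 6.65 in the others. Igf2 was 9.59 in FC 35, 9.33 in FC 79, 9.74 in CS 109, 9.42 in CS 105 and 9.48 in NH 82, against 9.03 to 9.52 in the others. Thus 3 of the 5 arrays lay above all others for Igfbp2 and 2 for Igf2. Of all 12422 probe sets, 0.169% had 3 or more such arrays and 1.32% had 2 or more. Within batch 6, FC 79 exceeded the 3 arrays without high Ttr, which reached 6.30 for Igfbp2 and 9.27 for Igf2. In batch 4, CS 105 differed from the median of the 5 arrays without high Ttr by -0.005 for Igfbp2 and 0.026 for Igf2. CS 109, the array with the highest Ttr, was also the highest of 26 for Kl, Folr1, Igfbp2 and Igf2.

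The second probe sets followed in part for Folr1 and not for Igf2. Folr1 162302_f_at had ranks 7 in FC 35, 26 in FC 79, 4 in CS 109, 3 in CS 105 and 6 in NH 82, so 4 of the 5 arrays were among the 7 highest and FC 79 was the lowest of all arrays. Igf2 98622_at had ranks 15, 8, 19, 12 and 21 in the same order. The shared height of Igf2 is therefore a statement about its brighter probe set.

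**Figure D3:**
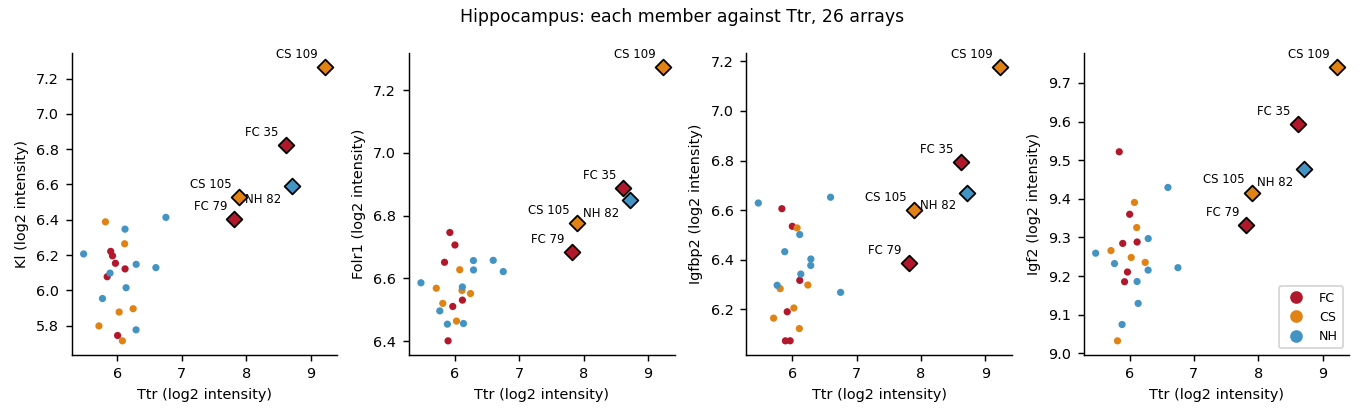
Log2 intensity of Kl, Folr1, Igfbp2 and Igf2 (vertical axes) against that of Ttr (horizontal axes) in 26 hippocampus arrays, coloured by arm, with the 5 arrays above the gap in Ttr as labelled diamonds. CS 109 is highest in every panel, and below the gap no member follows Ttr closely.

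Few probe sets of the array behaved like this. Of 12422 probe sets, 7 had at least 4 of these 5 arrays above all 21 others, or 0.0564%. They belonged to Ttr, Kl, Folr1, Slc4a5 and F5, and to the unnamed probe sets 97317_at and 95030_at. Ttr is there because its values chose the arrays, so this is a description without a test. Slc4a5, a sodium bicarbonate cotransporter of the choroid plexus, and F5, coagulation factor V, came from the list of 31 other choroid plexus genes. Both lay below the filter on dim probe sets, and they are named after their values were seen.

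Slc4a5 was 3.68 in FC 35, 3.24 in FC 79, 3.70 in CS 109, 3.51 in CS 105 and 3.52 in NH 82, against 3.02 to 3.43 in the others. F5 was 4.74 in FC 35, 4.47 in FC 79, 4.98 in CS 109, 5.10 in CS 105 and 4.85 in NH 82, against 4.34 to 4.72. In both genes FC 79 again lay inside the range of the others. The unnamed 97317_at was brighter, at 9.82, 9.67, 9.98, 9.37 and 10.04 in these arrays, and its other values of 8.27 to 8.92 lay below all 5.

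Of the 31 other choroid plexus genes, 9 had at least 1 of the 5 arrays above all others, or 29.0%, against 13.0% of all 12422 probe sets. The other 22 had none, among them Aqp1, a water channel, Cldn2, a tight junction protein, and Slc12a2, a chloride cotransporter of this epithelium. The share was larger for 8 oligodendrocyte genes, at 50%, and for 17 leptomeninges genes, at 41.2%. It was 25% for ependyma, 20% for blood, 9.09% for the insulin-like growth factor system and 8.33% for vessels. For the hippocampus and amygdala lists it was 0%. A raised share was thus not particular to the choroid plexus list. The summed intensity of the 31 genes was 3212 to 3504 in the 5 arrays with a median of 3299, and 3034 to 3434 in the 21 others with a median of 3199. The summed intensity of 17 leptomeninges markers was 3966 to 4747 in the 5 arrays with a median of 4604, and 3441 to 4683 in the others with a median of 4007. Ptgds made up 46.7% to 58.4% of this sum over the 26 arrays. Without it the other 16 markers summed to 1769 to 2062 in the 5 arrays, with a median of 1952, and to 1806 to 2035 in the others, with a median of 1925. The part of leptomeninges in the members' height was not tested.

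Likeness to Ttr was measured as Pearson's r of residuals after arm and batch. Over the 26 hippocampus arrays it is carried largely by the 5 high arrays and is given as a description. The 4 other members, by their brighter probe sets, lay nearer to Ttr on this measure than any named gene outside the members and were left out of the ranking. The 10 most alike named genes outside the members were Calml4 (r = 0.74), Arf5 (0.68), Nr2c2ap (0.67), Lbp (0.64), Ifi27 (0.63), Ptgds (0.62), Calb2 (0.62), Myh9 (0.60), Exosc7 (0.59) and Crip1 (0.59). The unnamed 97317_at had 0.95. Of the 7453 kept probe sets, 34 had r over 0.5, or 0.456%, and the median was -0.02. Of these genes Calml4, a calmodulin-like protein, and Lbp, lipopolysaccharide-binding protein, are on the list of other choroid plexus genes, and Ptgds, prostaglandin D synthase, is on that of leptomeninges.

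Over the 21 arrays without high Ttr the order changed. There r to Ttr was 0.61 for Calml4, 0.28 for Lbp and 0.27 for Ptgds, and Tfrc, the transferrin receptor, was nearest at 0.92. The share of kept probe sets with r over 0.5 was then 9.53%. In amygdala, where Ttr is dim, 23.6% of kept probe sets had r over 0.5. The 10 most alike named genes there were Col7a1, Ccr4, Csf3, H2-DMb2, Gtf3a, Inpp4a, Myog, Ranbp10, Rps13 and Olfr94, at 0.86 to 0.90. Amygdala Ttr correlated at 0.83 with the mean of the dim probe sets of each array, and amygdala Folr1 at 0.73. Hippocampus Ttr correlated with it at 0.01 over all 26 arrays and at 0.40 over the 21 without high Ttr, where Folr1 had 0.44 and Kl -0.41. The level of dim probe sets thus moved with Ttr and Folr1 in amygdala. It moved less closely with Ttr and Folr1, and against Kl, over the 21 hippocampus arrays, and hardly with Ttr over all 26. In amygdala it correlated at 0.16 with Igf2, -0.17 with Igfbp2 and -0.08 with Kl. Its part in the members' values was not tested.

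Among the lists, 20 kept genes of the other choroid plexus list had a median r to Ttr of 0.20 in hippocampus, 14 of them positive and 2 over 0.5. The closest after Calml4 and Lbp were Msx1 (0.47), Abca4 (0.46) and Slc4a2 (0.46). The median was 0.12 for leptomeninges, -0.01 for ependyma, -0.01 for oligodendrocytes, 0.18 for vessels, 0.25 for blood, -0.13 for hippocampus markers, -0.04 for amygdala markers and -0.03 for the insulin-like growth factor system. In amygdala the median was 0.42 for the other choroid plexus genes, -0.12 for leptomeninges, 0.43 for ependyma, -0.01 for oligodendrocytes, 0.58 for vessels, 0.63 for blood, -0.44 for hippocampus markers, -0.12 for amygdala markers and 0.23 for the insulin-like growth factor system.

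Members were correlated with each other across arrays as 10 pairs in each tissue, 20 in all. In hippocampus 10 of 10 pairs passed, with adjusted permutation p-values for Pearson's r between 0.0002 and 0.009, and 7 of 10 passed by Spearman's rho. Because the arrays fall into separate clusters, no pooled coefficient of the brighter probe sets is given for these pairs. Over the 21 arrays below the gap 0 of 10 pairs passed, with 1 of them, Ttr and Igf2, at r = 0.51 and an adjusted permutation p of 0.24. Ttr with Kl had r = 0.00 there, Ttr with Folr1 0.33, Ttr with Igfbp2 -0.22, Igfbp2 with Folr1 0.10 and Kl with Folr1 -0.024. None of the pairs that passed in hippocampus thus passed without the 5 arrays. These were chosen by Ttr, so leaving them out narrows the range of Ttr and by itself tends to lower its correlations. The 0 of 10 therefore cannot show that the members are unrelated below the gap.

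Within batches, coefficients ranged from 0.80 to 0.97 in batch 4, which held 2 of the 5 arrays among 7, and from 0.43 to 0.93 in batch 5, which held 1 among 8. In batch 7, with 6 NH arrays and none of the 5, they ranged from -0.75 for Ttr with Igfbp2 to 0.87 for Igf2 with Folr1. Batch 6 had 5 arrays, too few for a value.

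In amygdala 1 of 10 pairs passed by Pearson's r and 2 passed by Spearman's rho. Igf2 and Igfbp2 had r = 0.75 and rho = 0.71 over 22 arrays, with adjusted permutation p-values of 0.00155 and 0.0044. Without the 2 arrays farthest from the median of Igf2, r was 0.64. Within batches 1, 2 and 3 it was 0.69, 0.82 and 0.81. Igf2 and Folr1 had r = 0.47 and rho = 0.54, with adjusted permutation p-values of 0.0576 and 0.0308, and r within batches of 0.79, 0.72 and -0.48. The adjustment ran over the pairs of both tissues, so the hippocampus pairs entered it. With the 5 high hippocampus arrays left out and amygdala unchanged, the adjusted permutation p for rho was 0.156 for Igf2 and Folr1. It was 0.015 for Igf2 and Igfbp2. Ttr and Kl had r = -0.23 and an adjusted permutation p of 0.405. Whether any pair differed between tissues was not tested.

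Leptomeninges markers tended to follow Igf2 in amygdala. Igf2 and Igfbp2 were taken up as targets of this measure after their correlation had been seen. The most alike were Ogn, a matrix proteoglycan (r = 0.89 to Igf2), Gsn (0.79), Ptgds (0.78), Nupr1 (0.77), Aebp1 (0.76), Fn1, fibronectin (0.74), Slc6a13, a GABA transporter of the leptomeninges (0.74), and Fxyd5 (0.74). Of these 8 genes Ogn, Ptgds and Slc6a13 are on the leptomeninges list and the other 5 are on no list. Of 13 kept leptomeninges markers, 13 had a positive r to Igf2, 9 had r over 0.5, and the median was 0.60. Over all kept probe sets the median was -0.03 and 0.899% had r over 0.5. To Igfbp2, 12 of the 13 were positive, 8 had r over 0.5, and the median was 0.60. The other choroid plexus genes had a median r to Igf2 of 0.07, with 0 of 20 over 0.5.

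In hippocampus, 8 of 10 kept leptomeninges markers had a positive r to Igf2, with a median of 0.20 and 1, Ptgds, over 0.5. The summed intensity of the 17 markers in amygdala was 3464 to 4446 in FC, 2942 to 4452 in CS and 2100 to 4493 in NH arrays. Ptgds made up 42.9% to 70.5% of it, and without Ptgds the sum was 1220 to 1449 in FC, 1160 to 1450 in CS and 1182 to 1393 in NH arrays. Its part in the level of Igf2 and Igfbp2 was not tested, and whether the tissues differ was not tested either. The arms overlapped in the sum with and without Ptgds.

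**Figure D4:**
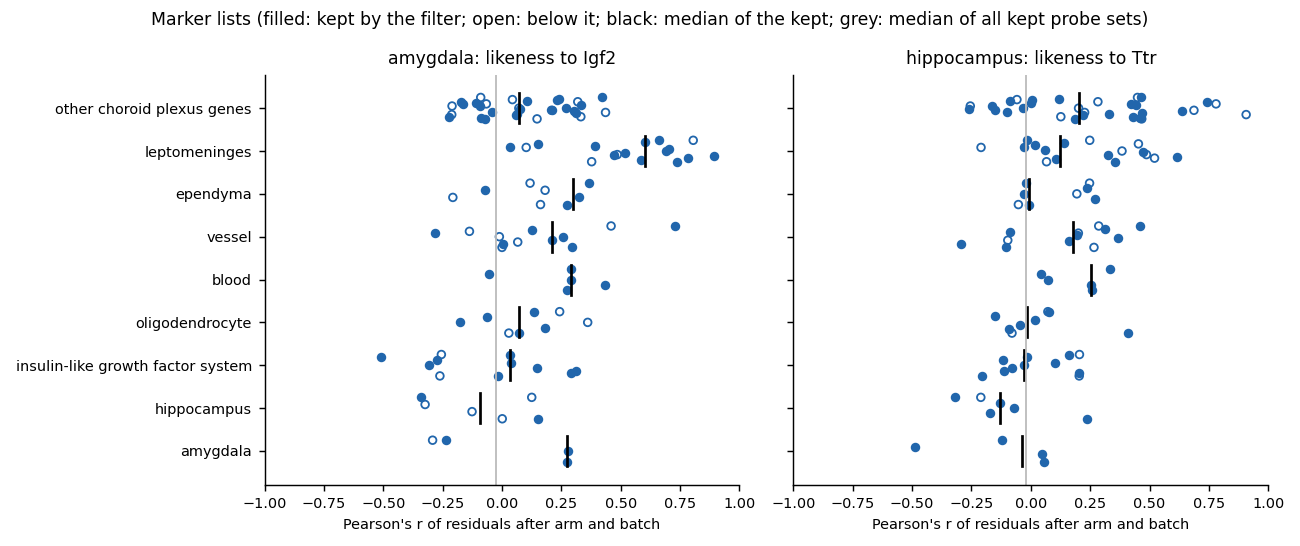
Pearson's r of residuals after arm and batch (horizontal axis) of each marker gene, by list (vertical axis), to Igf2 in 22 amygdala arrays and to Ttr in 26 hippocampus arrays. Filled points were kept by the filter, open ones were below it, black lines mark the median of the kept genes and the grey line that of all kept probe sets. Leptomeninges genes lie farthest to the right for Igf2 in amygdala, at a median of 0.60. Their median of 0.12 for Ttr in hippocampus differs from it in both gene and tissue. Not drawn are their medians of 0.20 for Igf2 in hippocampus and -0.12 for Ttr in amygdala.

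Under that reading of the codes, the comparisons with NH ask how a behavioural session changed the tissue, and FC against CS sets the 2 sessions against each other. No member passed the test in any of the 6 comparisons. Differences below are estimates ± SE of a limma fit that held the processing batch as a block, with Benjamini-Hochberg adjustment over all kept probe sets. In amygdala 0 of 4 member probe sets was called for CS minus NH, where 0.0134% of all 7453 were called, for FC minus NH, where 0.0939% were called, and for FC minus CS, where 0% were called. In hippocampus 0 of 6 was called for CS minus NH and FC minus NH, with 0.0134% of all called in each, and for FC minus CS, with 0% of all called. No member had an unadjusted p under 0.05 in any of them. At an unadjusted p under 0.05, 92 probe sets passed for FC minus CS in amygdala and 57 in hippocampus over the whole array. With so few calls in all, these counts say little about the members.

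In hippocampus the interval for Ttr was wide. FC minus NH was 0.13 ± 0.65 (95% interval -1.20 to 1.46), CS minus NH was 0.26 ± 0.65 (-1.09 to 1.60) and FC minus CS was -0.13 ± 0.49 (-1.14 to 0.88), with limma adjusted p-values of 1.00 in each. A difference of Ttr inside these intervals was not detectable with these arrays. Within batch 4 CS minus NH was 1.70, and within batch 6, with 1 CS array, it was -1.53. FC minus CS was -1.81 in batch 4, 0.59 in batch 5 and 1.18 in batch 6, and in each the arm with the higher mean was the one that held a high array. Leaving out single arrays moved FC minus NH from -0.31 without NH 100 to 0.86 without NH 82. It moved CS minus NH from -0.25 without CS 109 to 0.92 without NH 82, and FC minus CS from -0.50 without FC 35 to 0.21 without CS 109.

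Without the 5 arrays the interval for Ttr narrowed. FC minus NH was then -0.03 ± 0.19, CS minus NH was 0.01 ± 0.20 and FC minus CS was -0.04 ± 0.15, and no member was called. Over the whole array 1 of 7453 probe sets was called for FC minus NH, and 0 were called for the other comparisons, of which 262 had an unadjusted limma p under 0.05 for CS minus NH and 99 for FC minus CS. This choice was made after the data were seen, and the arrays left out were picked by the value that is compared.

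For Kl in hippocampus FC minus NH was -0.01 ± 0.23, CS minus NH -0.02 ± 0.23 and FC minus CS 0.01 ± 0.17. Without the 5 arrays CS minus NH was -0.28 ± 0.15 and FC minus CS 0.14 ± 0.11. Folr1 gave 0.06, 0.07 and -0.01, Igfbp2 gave -0.10, -0.10 and -0.01, and Igf2 gave 0.05, 0.02 and 0.03 for the same 3 comparisons, with standard errors of 0.07 to 0.13. Both Folr1 probe sets lay within 0.07 of 0.

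In amygdala, Folr1 ranged from 5.86 to 6.19 in FC, from 5.77 to 6.10 in CS and from 5.91 to 6.17 in NH. Its FC minus NH was -0.10 ± 0.07, CS minus NH -0.10 ± 0.07 and FC minus CS -0.01 ± 0.06. Igf2 ranged from 8.995 to 9.35 in FC with a median of 9.26, from 8.85 to 9.35 in CS with a median of 9.17 and from 8.68 to 9.37 in NH with a median of 9.04. Its differences were 0.06 ± 0.10, -0.05 ± 0.10 and 0.10 ± 0.09. Igfbp2 ranged from 6.18 to 6.76 in FC, from 6.26 to 6.68 in CS and from 5.92 to 6.57 in NH, and its differences were 0.04 ± 0.09, 0.01 ± 0.09 and 0.03 ± 0.08. The arms overlapped for every member, and the smallest limma adjusted p of a member was 0.894.

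Igfbp2 and Igf2 also moved with the batch in amygdala. Igfbp2 ranged from 5.92 to 6.32 in batch 1, which held only NH arrays, from 6.18 to 6.52 in batch 2 and from 6.34 to 6.76 in batch 3. With no batch term FC minus NH would read 0.25 ± 0.10 for Igfbp2 and 0.22 ± 0.09 for Igf2, with limma adjusted p-values of 0.127 and 0.146. Within batch 2, with 4 FC and 3 NH arrays, FC minus NH was -0.01 for Igfbp2 and 0.06 for Igf2.

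**Figure D5:**
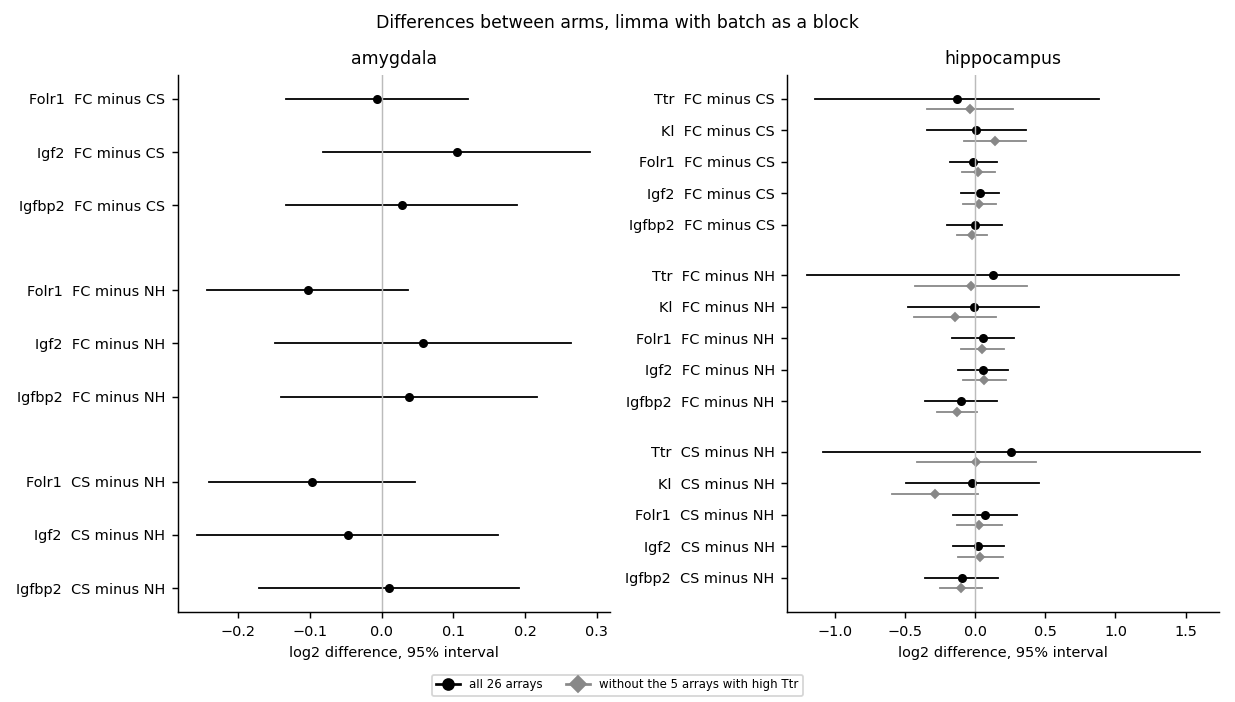
Log2 differences between arms (horizontal axis) with 95% intervals for the kept members in amygdala and hippocampus, estimated by limma with a block for the batch. Every interval from all arrays contains 0, and that of Ttr in hippocampus, -1.09 to 1.60 for CS minus NH, is the widest.

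Whether a comparison differed between the tissues was tested in a joint fit of all 48 arrays. The fit took each array as independent, although the title numbers allow that the tissues share animals, and its p-values do not account for that. None of 4 member probe sets kept in both tissues was called, and neither was any of the 7242 probe sets for the 3 comparisons (0% each), of which 183, 248 and 99 had an unadjusted p under 0.05 for CS minus NH, FC minus NH and FC minus CS. The amygdala difference minus the hippocampus difference for FC minus NH was -0.16 ± 0.13 for Folr1, 0.14 ± 0.16 for Igfbp2 and 0.00 ± 0.14 for Igf2, and the smallest limma adjusted p of a member was 0.981.

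Genes around the members did not pass either. Of the 20 other choroid plexus genes kept, 0 were called in any of the 6 comparisons. Their median FC minus NH was -0.05 in amygdala, with 7 positive, and 0.00 in hippocampus, with 10 positive, against 0.01 and 0.00 over all kept probe sets. Of 9 genes of the insulin-like growth factor system, which include the receptors Igf1r and Igf2r and further binding proteins, 0 were called. Their median FC minus NH was -0.05 in amygdala, with 3 positive, and -0.02 in hippocampus, with 3 positive. No gene of the leptomeninges, ependyma, oligodendrocyte, vessel, blood, hippocampus or amygdala lists was called in any comparison by limma.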

How the data were processed

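The authors deposited linear intensity values for every probe set of each array, which they made with RMA, per the submitters' processing notes. The sources used here do not name its version or settings. RMA as generally described equalises the intensity distributions of arrays, so a shift shared by most transcripts would not show. From the deposited intensity log2 was taken with nothing added. The number of arrays limits the precision, and no detection calls were used.

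Of 12422 probe sets left after 66 array controls, 10833 name 1 gene, 396 several and 1193 none in the platform annotation. Each tissue was fitted with limma 3.58.1 in R 4.3.3, with the arms and the processing batch as a fixed block, after removal of the dimmest 40% of probe sets by mean. Tests were two-sided with a Benjamini-Hochberg threshold of 0.05. The amygdala arrays came in batches 1 (6 NH), 2 (4 FC, 3 CS, 3 NH) and 3 (2 FC, 3 CS, 1 NH), and the hippocampus arrays in batches 4 (2 FC, 3 CS, 2 NH), 5 (4 FC, 4 CS), 6 (2 FC, 1 CS, 2 NH) and 7 (6 NH).

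Correlations used residuals after arm and batch, with 100000 permutations within batch and adjustment over 20 pairs. The plan counted 15 pairs a tissue, but without Enpp2 there were 10. Named genes are the members, the 10 genes most like Ttr in each tissue, called list genes and the members of each list most like Ttr. The members and lists were chosen with earlier results of these data known. Scripts were tested on simulated data.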

Additional observations from a re-analysis of the deposited data

Results flagged for a closer look

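Of 42 groups of arrays, 1 for each member probe set, tissue and arm, 5 held an array whose distance to its nearest neighbour was large for the group's whole range by Dixon's criterion. Chance gives a flag in about 1 of 20 groups at each such test. In hippocampus NH arrays, NH 82 stood apart for Ttr at 8.72 and for Folr1 at 6.85. In hippocampus CS arrays, CS 109 stood apart for Igfbp2 at 7.18 and for Folr1 at 7.28. Both arrays belong to the 5 with high Ttr. In FC and CS arrays of hippocampus Ttr itself was not marked, because each arm held 2 high arrays and the criterion looks at a single gap. The remaining one was low and in another tissue, Folr1 at 5.77 in amygdala array CS 23139.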

How the results depend on the processing

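No member probe set was called in any of the 6 comparisons under any alternative run, namely no filter, 60% of probe sets left out, no batch term, the batch as a random block, single batches, quantile normalization, 32 added before log2, array weights, and each array left out in turn (0 to 0 calls), nor without the 5 arrays with high Ttr. The smallest limma adjusted p of a member was 0.0864, for Folr1 (FC minus NH, amygdala, array weights), a setting that called 911 of 7453 probe sets, against 7 as reported and 211 with no batch term. Of 273 uncalled differences under settings other than leaving out 1 array, 52 had the opposite sign, and of 732 with 1 array left out, 76 had it. The tissue difference gave 0 calls with no filter and with no batch term. In hippocampus 10 correlated pairs became 3 without the 2 farthest arrays, 0 without the 5 arrays and 7 with the mean of a gene's probe sets, where r was 0.17 for Kl and Igf2, 0.39 for Igf2 and Igfbp2 and 0.38 for Igf2 and Folr1 (adjusted permutation p of 0.481, 0.12 and 0.12) and 0.48 for Ttr and Igf2 (0.0458). Without those 5, r turned to -0.22 for Ttr and Igfbp2, -0.13 for Kl and Igf2, -0.13 for Kl and Igfbp2, -0.024 for Kl and Folr1 and -0.11 for Igf2 and Igfbp2. In amygdala the 1 pair that passed by Pearson's r became 2, with Igf2 and Folr1 added. This held when the array median was also removed and without the 2 farthest arrays. With the mean of a gene's probe sets it did not hold, and only Igf2 and Igfbp2 passed, at r = 0.61 (adjusted permutation p of 0.00923). There Igf2 and Folr1 had r = 0.17 (adjusted permutation p of 0.538). No paired analysis was possible because the arms of a tissue share no replicate number.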
